A study of Homo sapiens with 12 samples.

Results

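Membrane transporter genes of the SLC (solute carrier) and ABC (ATP-binding cassette) superfamilies were described in breast cells that had transited a capillary-sized constriction. The genes were taken by name: a row was included when it was annotated as protein coding and its symbol began with SLC and a digit, SLCO, ABCA, ABCB, ABCC, ABCD or ABCG. This gave 44 genes of the 3090 distinct genes in the deposited tables, of which MCF-10A cells had 41, MDA-MB-231 cells 3 and LM2 cells 0, and no gene was in more than one table. RNA was sequenced from MCF-10A (a non-malignant breast epithelial line, here tagged for PCNA), MDA-MB-231 (a triple-negative breast cancer line) and LM2 (a lung-metastatic derivative of MDA-MB-231). In each line, 2 libraries came from cells collected after transit through microfluidic channels with a width of 5 µm, a height of 5 µm and a length of 150 µm, driven by a hydrostatic pressure of 7 to 33 cmH2O, and 2 libraries came from control cells of the same line that had not transited, 12 libraries in all. Each transit library pooled the cells of many chips run in parallel, and the experiment was repeated in each line to give the replicates. The study's supplement lists unequal RNA amounts. In MDA-MB-231 and LM2, transit gave far less total RNA than control. In MCF-10A, transit gave less than control in replicate 1 and more in replicate 2, and both conditions differed widely between replicates. Whether the RNA amount bears on counts of 0 was not tested. Positions below are GRCh38 coordinates from the deposited tables.

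SLC proteins are carriers and exchangers that move amino acids, sugars, carboxylates, ions, vitamins and metals across the plasma membrane or organelle membranes, most of them using the gradient of the substrate itself or of a co-transported ion. ABC proteins use ATP, and members of the ABCA subfamily are mainly lipid transporters. Many of the members below are best known from kidney, intestine, liver or lung, where they take up or secrete their substrates across an epithelium.

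The tables list only genes whose unadjusted p-value in the authors' comparison of these same libraries was under 0.05, so the tests given here describe listed genes and are not independent evidence of a change. Library totals ranged from 29978695 to 53584754 reads, and in MCF-10A they were 29978695 and 35494737 after transit and 36123663 and 46436989 in control. Of the 427 SLC and ABC coding genes of these names in the GENCODE 29 annotation, 9.60% were listed in MCF-10A, against 5.96% of all 19951 annotated coding genes. In MDA-MB-231 the shares were 0.703% and 0.722%. The listed MCF-10A genes were spread over 18 chromosomes. By family, 3 of 5 SLC13 genes, 3 of 11 SLC26 genes, 3 of 12 ABCA genes, 3 of 14 SLC16 genes, 3 of 15 SLC9 genes and 3 of 48 SLC25 genes were listed. None of the 9 ABCB, 11 ABCC, 4 ABCD or 5 ABCG genes was listed, nor any of the 15 SLC2 genes (facilitative glucose carriers), the 31 SLC35 genes (nucleotide sugar carriers) or the 11 SLC38 genes (neutral amino acid carriers). An unlisted gene has no values here, and whether it differed is not known from these tables.

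In MCF-10A, 40 of the 41 transporter genes were lower after transit and 1, SLC5A12, was higher. The 40 lower genes together had 0 reads in constriction library 1 and 10 reads in constriction library 2, against 2060 and 1373 reads in the control libraries. No read at all was counted in either constriction library for 38 genes, which was 92.7% of the members, where the share over all 2680 listed genes was 89.6%. The groups did not overlap for 40 genes, where 96.8% of all listed genes had groups that did not overlap. By edgeR's quasi-likelihood test, 39 genes fell (background 91.3% of the table called lower) and 1 rose (background 0.149% called higher) at an adjusted p under 0.05. The shares of lower genes lay close to those of the whole table, so they say nothing particular to transporters, and the 1 higher gene rested on 1 library. With the replicate number as a block, 24 of the 40 calls remained and none was gained, all of them lower (background 74.2%). Leaving out 1 library makes a group of 1, assumed to vary like the other group, and the fit then called 0 genes without constriction library 1, 1 without constriction library 2, 3 without control library 1 and 0 without control library 2, with 40, 41, 21 and 27 genes at an unadjusted edgeR p under 0.05. Without constriction library 1 or 2, most members shared the same adjusted p, so the counts of those fits say little about stability. The call left without constriction library 2 was SLC5A12. How far the bounds rested on 1 control library is described below. No share over all listed genes is given for these fits, so their counts are not a result about transporters. RNA came from whole cell pellets, so fewer cells carrying a transcript and less transcript per cell cannot be told apart.

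**Figure D1:**
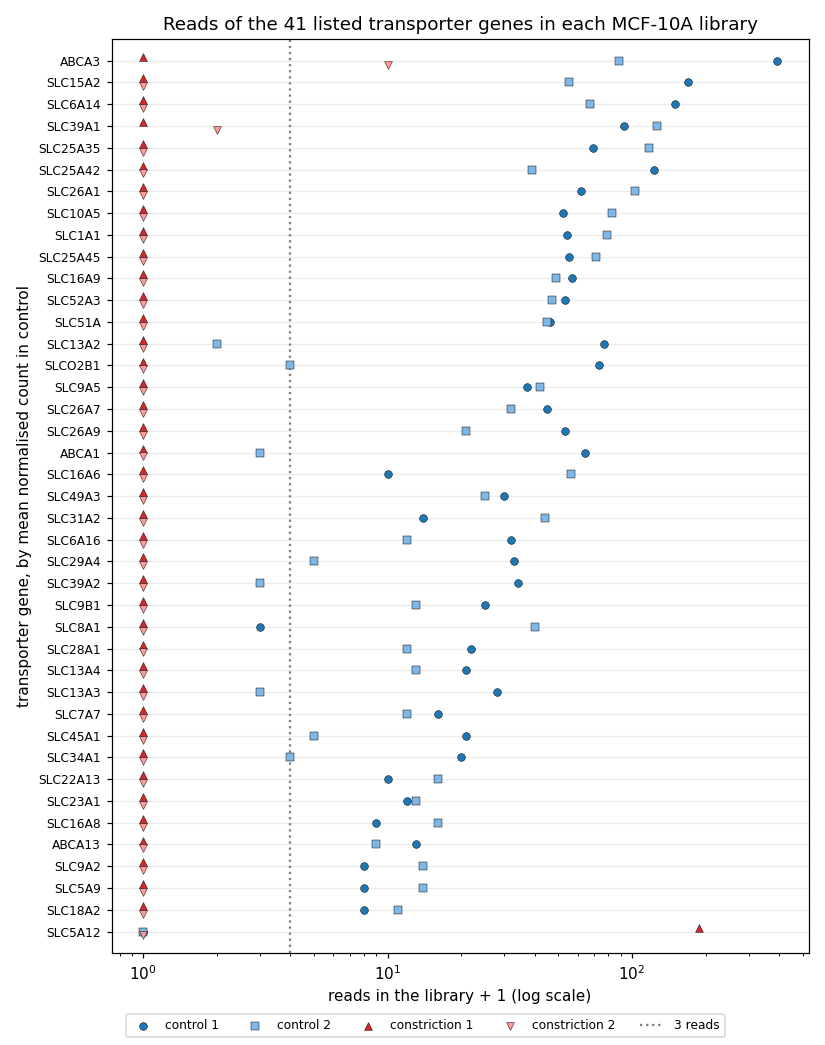
Reads of each of the 41 transporter genes listed in MCF-10A, with 1 added, on a log axis, for the control libraries (circles and squares) and the constriction libraries (triangles); genes are ordered by their mean normalised count in control and the dotted line marks 3 reads. For 38 genes both triangles lie at 0 reads, while SLC5A12 has 187 reads in constriction library 1 and 0 in the other 3 libraries.

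For a gene with 0 reads in both constriction libraries, the fold change is given as a bound, taking 3 reads per library as the level that a count of 0 allows and dividing by the authors' size factors. These bounds allow only for the counting error of a 0 after transit. The control mean is taken as it stands, so its counting error and the spread between libraries are not covered. Reads were not tagged as single molecules, so the floor counts reads and not molecules. Over the 38 genes the bound ran from at least 2.19-fold to at least 30.8-fold lower, with a median of 6.99. It was at least 10-fold for 15 genes and at least 5-fold for 23. Leaving out constriction library 1 or 2 changed the bounds of the named genes to 1.08 or 0.929 times these values, whereas leaving out a control library could change them by more, as given with each gene. Adjusted p-values below are from edgeR, without and, where it ended the call, with the replicate block. The calls counted by class are to be read beside the shares of the whole table, 91.3% called lower and 74.2% with the block, and are not a result about any class.

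The proximal promoters of 5 members are shown to let a reader see what stands before a RefSeq start of genes that behaved differently. SLC6A14 and SLC25A42 were among the lower genes with the most reads in control, SLC34A1 was one of those with few, SLC5A12 was the 1 gene of MCF-10A with a higher mean after transit, and SLC16A12 was the member with most reads in MDA-MB-231. Each sequence is the 120 bases before the RefSeq start, 5′ to 3′ on the gene's strand in GRCh38.p14, with capitals marking 3 motifs on either strand, which are the TATA box with the letters TATAAA, the box known by its letters CCAAT, and the GC box with the letters GGGCGG. None of these windows overlapped an exon of GENCODE 29. The windows of SLC34A1, SLC5A12 and SLC16A12 lie within the gene spans given below. There the RefSeq start lies inside the listed gene and is not its outer end.
SLC6A14, chrX:116436486-116436605, plus strand: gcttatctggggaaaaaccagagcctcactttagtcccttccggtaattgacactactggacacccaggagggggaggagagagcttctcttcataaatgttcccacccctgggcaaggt
SLC25A42, chr19:19063874-19063993, plus strand: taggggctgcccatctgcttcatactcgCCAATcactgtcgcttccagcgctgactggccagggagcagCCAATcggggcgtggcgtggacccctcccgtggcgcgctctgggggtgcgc
SLC34A1, chr5:177384314-177384433, plus strand: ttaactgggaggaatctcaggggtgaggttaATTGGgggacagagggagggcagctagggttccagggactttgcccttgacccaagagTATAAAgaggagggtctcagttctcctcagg
SLC5A12, chr11:26722061-26722180, minus strand: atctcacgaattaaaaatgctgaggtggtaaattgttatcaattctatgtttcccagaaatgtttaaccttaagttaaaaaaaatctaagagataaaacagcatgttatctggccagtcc
SLC16A12, chr10:89535595-89535714, minus strand: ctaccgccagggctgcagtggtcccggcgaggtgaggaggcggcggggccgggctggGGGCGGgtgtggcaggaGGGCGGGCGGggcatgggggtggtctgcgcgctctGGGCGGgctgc
The SLC34A1 window held a TATA box from 31 bases before the start and a CCAAT box on the other strand from 89 bases before it. The SLC25A42 window held a CCAAT box from 92 and from 51 bases before the start. The SLC16A12 window held a GC box from 63, 46, 42 and 11 bases before the start, and the matches at 46 and 42 overlap. The windows of SLC6A14 and SLC5A12 held none of these letters. Over the 35116 RefSeq promoters cut to the same 120 bases, 5.63% held a TATA box, 20.4% a CCAAT box and 34.0% a GC box so defined. RefSeq promoters matched 34 of the 44 members, which is 77.3% and too few for a comparison of the members with other genes.

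Carriers of amino acids and peptides included the 2 genes with the highest control means among those at 0 reads after transit. SLC15A2, the proton-coupled peptide carrier known from the kidney (chr3:121894089-121944102, plus strand), had 0 and 0 reads after transit against 168 and 54 in control. SLC6A14, a sodium- and chloride-dependent carrier of neutral and cationic amino acids (chrX:116436622-116461458), had 0 and 0 reads against 149 and 66. SLC1A1, the neuronal and epithelial glutamate carrier (chr9:4490444-4587469), had 0 and 0 reads against 53 and 78. For each gene both constriction libraries lay under both control libraries, and control library 1 was the higher control for the first 2 genes and control library 2 for SLC1A1. SLC15A2 fell at least 30.8-fold (adjusted p = 0.0237, and 0.925 with the block), and at least 12.7-fold without control library 1. SLC6A14 fell at least 29.5-fold (adjusted p = 0.0201, and 0.868 with the block), and at least 15.5-fold without control library 1. SLC1A1 fell at least 16.9-fold (adjusted p = 0.00469, and 0.158 with the block). All 5 listed genes of the amino acid and neurotransmitter class fell, with 0 reads after transit and mean normalised counts of 7.37 to 99.0 in control, and 3 kept the call with the block.

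Of 5 listed carriers of vitamins, nucleosides and peptides, all 5 were called lower (background 91.3%) and 3 with the block (background 74.2%). SLC52A3, a riboflavin carrier (chr20:760080-776015), had 0 and 0 reads after transit against 52 and 46 in control. Its control libraries were close to each other, and it fell at least 13.0-fold (adjusted p = 0.00469, and 0.0974 with the block). The other members of the class beside SLC15A2 were SLC29A4, an equilibrative transporter of monoamines, SLC28A1, a concentrative nucleoside carrier, and SLC23A1, an ascorbate carrier, which had 4 to 32 reads in the control libraries.

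All 3 listed mitochondrial carriers of the SLC25 family fell, and none kept its call with the block. SLC25A35 (chr17:8287763-8295343) had 0 and 0 reads after transit against 68 and 116 in control. SLC25A42, a carrier of coenzyme A (chr19:19063999-19112888), had 0 and 0 reads against 122 and 38. SLC25A45 (chr11:65375192-65383701) had 0 and 0 reads against 54 and 70. Every control library was far above both constriction libraries, though the higher control was library 1 for SLC25A42 and library 2 for the others. The falls were at least 23.5-fold for SLC25A35 (adjusted p = 0.00979, and 0.624 with the block), at least 22.2-fold for SLC25A42 (adjusted p = 0.00936, and 0.618 with the block) and at least 16.1-fold for SLC25A45 (adjusted p = 0.00469, and 0.141 with the block). Without control library 1 the bound of SLC25A42 was 8.93. Of the exon bases of SLC25A35, 33.2% are shared with RANGRF on the opposite strand. Whether the libraries were directional is not stated in the sources used here, so reads of such pairs cannot be assigned with certainty.

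The carboxylate carriers were the class with most members, 6 genes of the SLC13 and SLC16 families, and all 6 fell, with 4 calls left with the block. SLC16A9, a monocarboxylate transporter family member known to carry carnitine (chr10:59650761-59736002), had 0 and 0 reads after transit against 56 and 48 in control. It fell at least 13.8-fold (adjusted p = 0.00469, and 0.112 with the block). SLC13A2, a sodium-dependent citrate and dicarboxylate carrier of the kidney (chr17:28473293-28497781), had 0 and 0 reads after transit against 76 and 1 in control. Here control library 2 was at the level of the constriction libraries and the difference came from control library 1 alone. Its bound was at least 11.2-fold lower (adjusted p = 0.0113, and 0.205 with the block). SLC13A3, the related high-affinity dicarboxylate carrier (chr20:46557823-46684467), had the same shape with 0 and 0 reads against 27 and 2, and fell at least 4.17-fold (adjusted p = 0.00995). For both SLC13 genes no bound could be computed from control library 2, which held no more than 3 reads.

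Anion exchangers of the SLC26 family were listed as SLC26A1, SLC26A7 and SLC26A9, and all 3 fell. SLC26A1, a sulphate and oxalate exchanger (chr4:979073-993440), had 0 and 0 reads after transit against 61 and 102 in control. SLC26A7, a chloride and bicarbonate exchanger (chr8:91209494-91398152), had 0 and 0 reads against 44 and 31. The groups were clearly apart for both. SLC26A1 fell at least 20.9-fold (adjusted p = 0.00681, and 0.496 with the block). SLC26A7 fell at least 10.1-fold (adjusted p = 0.00469) and kept its call with the block. No SLC4 gene (bicarbonate carriers) and no SLC12 gene (cation and chloride cotransporters) was listed, of 11 and 9.

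All 4 listed exchangers of sodium, protons or calcium were called lower (background 91.3%), and all 4 also with the block (background 74.2%). SLC9A5, a sodium and proton exchanger (chr16:67237683-67272190), had 0 and 0 reads after transit against 36 and 41 in control, and fell at least 10.1-fold (adjusted p = 0.00469). SLC9B1, a sodium and proton exchanger known from the testis (chr4:102885048-103019739), had 0 and 0 reads against 24 and 12, and fell at least 4.91-fold (adjusted p = 0.00469), or 2.82-fold without control library 1. SLC8A1, the plasma membrane sodium and calcium exchanger of the heart, had 2 and 39 reads in control, and was the only lower member with no more than 3 reads in control library 1. SLC34A1, the sodium-phosphate cotransporter of the renal proximal tubule (chr5:177379235-177398848) and the only listed phosphate carrier, had 0 and 0 reads after transit against 19 and 3 in control. Its 3 reads in control library 2 were at the floor, so its bound came from control library 1, and it fell at least 3.12-fold (adjusted p = 0.00542).

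The 3 listed metal ion carriers fell, and 2 of them kept the call with the block. SLC39A1, a zinc importer (chr1:153959099-153968184), had 0 and 1 reads after transit against 92 and 125 in control. With a single read after transit, its ratio of control to constriction was 170 with an exact 95% counting interval of 30.2 to 6758 (adjusted p = 0.0434, and 1 with the block). Its log2 difference with a pseudocount of 1 was -5.97, and -5.55 without constriction library 1. Without constriction library 2 it had 0 reads after transit, and its bound was -4.71 on the log2 scale. The difference was -6.04 without control library 1 and -5.91 without control library 2. SLC31A2, a copper transport protein (chr9:113150942-113164137), had 0 and 0 reads against 13 and 43, and fell at least 6.94-fold (adjusted p = 0.00470), or 3.79-fold without control library 2. SLC39A2, another zinc importer (chr14:20999255-21001871), had 0 and 0 reads against 33 and 2, and fell at least 5.04-fold (adjusted p = 0.0102), but its 2 reads in control library 2 alone allowed no fall, so the bound rested on control library 1. For SLC39A1 and SLC31A2 most exon bases are also part of another gene, 69.1% with AL358472.7 and CREB3L4 and 63.1% with FKBP15. SLC18A2, a vesicular monoamine carrier, shares 56.1% of its exon bases with PDZD8, AL391988.1 and AL731557.1 on the opposite strand. These were the 3 members with over 50% of shared bases, and 19 of the 41 shared some, so which gene their reads came from was not tested.

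The 4 listed carriers of bile acids and organic ions fell, and 1 kept the call with the block. SLC10A5, a member of the bile acid carrier family (chr8:81693607-81696174), had 0 and 0 reads after transit against 51 and 82 in control. SLC51A, the alpha subunit of the basolateral steroid and bile acid exporter (chr3:196211487-196243178), had 0 and 0 reads against 45 and 44. SLCO2B1, an organic anion carrier of liver and intestine (chr11:75100563-75206549), had 0 and 0 reads against 72 and 3. The controls of SLC51A were nearly equal, whereas those of SLCO2B1 differed 29.8-fold in normalised counts, so its difference came from control library 1. SLC10A5 fell at least 17.1-fold (adjusted p = 0.00469, and 0.179 with the block). SLC51A fell at least 11.7-fold (adjusted p = 0.00469, and 0.0688 with the block). SLCO2B1 fell at least 10.8-fold (adjusted p = 0.00828, and 0.131 with the block).

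Among sugar carriers, SLC45A1, a proton-linked sugar carrier of the brain (chr1:8317826-8344167), had 0 and 0 reads after transit against 20 and 4 in control. SLC5A9, a sodium-dependent mannose and fructose carrier (chr1:48222685-48248644), had 0 and 0 reads against 7 and 13. Both were among the lowest members in control. SLC45A1 fell at least 3.38-fold (adjusted p = 0.00549), but its 4 reads in control library 2 alone allowed no fall, with a bound of 0.940, so the difference rested on control library 1. SLC5A9 fell at least 2.55-fold (adjusted p = 0.00469). SLC5A12, which belongs to the SLC5 sugar carrier family but is known as a low-affinity lactate carrier of the kidney (chr11:26667019-26723427), was the only member listed in MCF-10A that was higher after transit. It had 187 and 0 reads after transit against 0 and 0 in control. The groups overlapped, because constriction library 2 was at 0 like both controls, and the whole difference came from 1 library. Its level was at least 42.5-fold higher on the group means (adjusted p = 0.0486, and 1 with the block), and without constriction library 1 it was at 0 in every library. With TMM factors in place of the size factors the bound was 4.05-fold and the call was lost (adjusted p = 0.134).

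Of the ABC superfamily only ABCA genes were listed. ABCA3 is the phospholipid transporter of lung surfactant (chr16:2275881-2340746). Among the MCF-10A members it had the most reads in control and was the only lower gene with more than 3 reads in a constriction library. It had 0 and 9 reads after transit against 390 and 87 in control. All values after transit were under both control values, but the control libraries differed 5.56-fold. Its mean normalised count was 225 ± 221 (SD, n = 2) in control and 4.66 ± 6.59 (SD, n = 2) once the cells had transited, a difference of -5.32 on the log2 scale with a pseudocount of 1 (SE 1.55), and the edgeR test did not call it (adjusted p = 0.401, and 1 with the block). The difference was -3.62 without control library 1, -6.08 without control library 2 and -4.45 without constriction library 1. ABCA1, the cholesterol and phospholipid exporter that feeds high-density lipoprotein (chr9:104781002-104928237), had 0 and 0 reads after transit against 63 and 2 in control. It fell at least 9.41-fold (adjusted p = 0.0100, and 0.0944 with the block), and control library 2 was within 3 reads of 0. ABCA13, the third ABCA gene, had 12 and 8 reads in control and was also called lower.

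The control libraries were unlike each other for part of the members. Of the 40 lower genes, 20 differed by less than 2-fold between the controls and 10 by more than 5-fold, 25% of the members, where the share was 12.5% of all lower genes in the table and 18.3% of the other lower coding genes. Control library 1 was the higher in 26 genes, 65% of the lower members, and control library 2 in 14. For control library 1 the share was 56.5% of all lower genes in the table and 68.1% of the other lower coding genes. For 9 of the 38 genes with a bound, 1 control library alone allowed no fall. These were SLC13A2, SLC13A3, SLC29A4, SLC34A1, SLC39A2, SLC45A1, SLCO2B1 and ABCA1 for control library 2 and SLC8A1 for control library 1, and their difference from the constriction libraries rested on the other control library. For 10 further genes, among them SLC15A2, SLC6A14, SLC25A42, SLC9B1 and SLC31A2, leaving out the higher control lowered the bound by over 1.5 times.

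**Figure D2:**
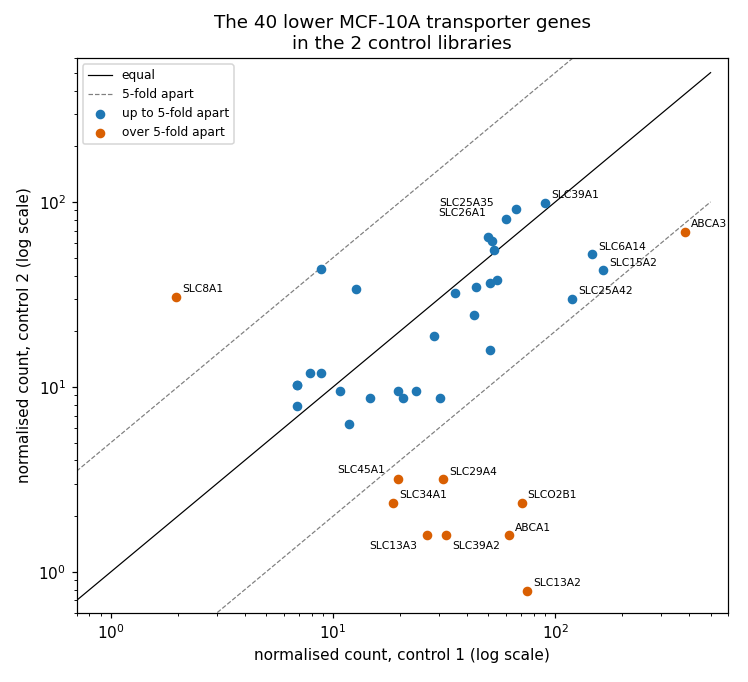
Normalised count of each of the 40 lower MCF-10A transporter genes in control library 1 (x axis) and control library 2 (y axis), both on log scales, with the line of equal values and dashed lines 5-fold away. The 10 genes over 5-fold apart are named in orange, 9 of them higher in control library 1, and SLC8A1 is the only one higher in control library 2.

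The calls that ended with the replicate block were mostly those of the genes with more reads in control. The 16 lost calls had a median mean normalised count of 55.4 in control, from 0 for SLC5A12 to 104 for SLC15A2, whereas the 24 calls that remained had a median of 14.6, from 7.37 to 33.8. The median fold between the control libraries was 1.40 for the genes that lost the call and 2.22 for those that kept it. With TMM factors, calls ended for 7 of the named genes, SLC39A1 (adjusted p = 0.118), SLCO2B1 (0.0717), ABCA1 (0.0867), SLC13A2 (0.115), SLC39A2 (0.0826), SLC13A3 (0.0737) and SLC5A12. The levels of both sets met, since ABCA1 at 31.6 normalised counts in control lost the call (adjusted p = 0.0944 with edgeR and the block) while SLC9A5 at 33.8 kept it (0.0308).

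**Figure D3:**
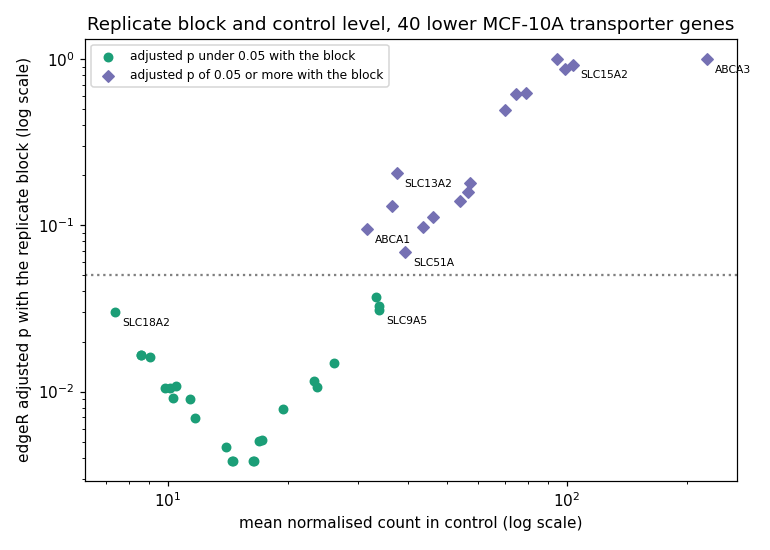
Adjusted p from edgeR with the replicate block (y axis, log scale) against the mean normalised count in control (x axis, log scale) for the 40 lower MCF-10A transporter genes, with the dotted line at 0.05. Circles are the 24 genes called with the block, all at or below 33.8 normalised counts, and diamonds are the 16 lower genes not called with it, which include ABCA3.

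All of these genes were low in MCF-10A control cells by the deposited values. For members with exon bases shared with other genes, SLC39A1 among them, which gene the reads came from was not tested. Per length, the control level of the 40 lower genes ran from 0.0132 FPKM for ABCA13 to 0.812 FPKM for ABCA3, with a median of 0.161, and none was above 1 FPKM. The next highest were SLC39A1 at 0.773 FPKM, SLC10A5 at 0.619 FPKM and SLC6A14 at 0.613 FPKM, but the 2 control libraries of ABCA3 (0.240 and 1.38 FPKM) and of SLC6A14 (0.314 and 0.913 FPKM) spanned those of the other 2 genes, so neither can be ranked against them. Over all lower genes of the table the median was 0.263 FPKM, and over the other lower coding genes it was 0.162 FPKM. In normalised counts, which are not corrected for length, the median of the members was 24.9, against 17.1 for all lower genes of the table. It was 20.6 for the other lower coding genes. The members' median gene length was 4519 bases, against 2348 for the whole table and 3949 for its other coding genes.

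**Figure D4:**
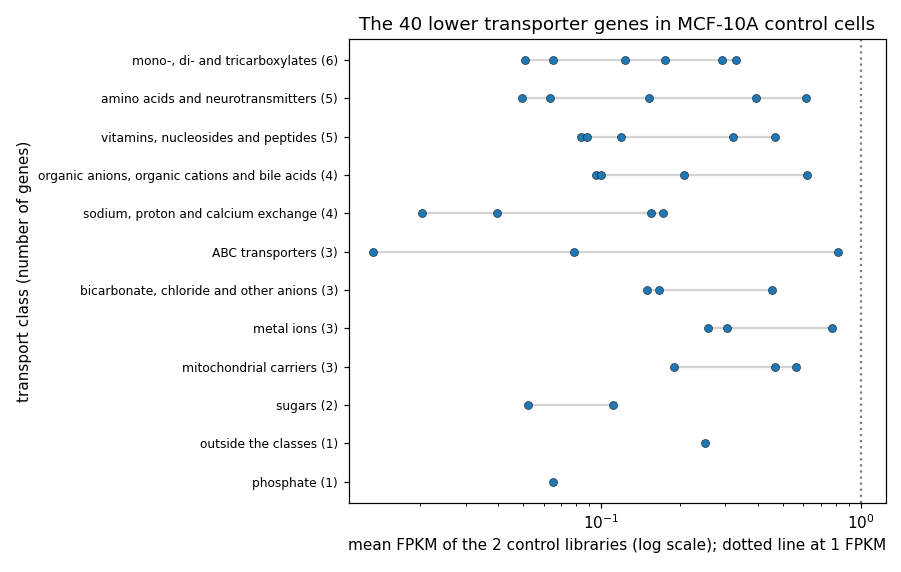
Mean FPKM of the 2 control libraries (x axis, log scale) for the 40 lower MCF-10A transporter genes by transport class, with the number of genes of each class in brackets and a dotted line at 1 FPKM. Every gene lies under 1 FPKM, and the classes overlap over most of their range.

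In MDA-MB-231, 3 transporter genes were listed, 2 lower and 1 higher after transit, and edgeR called 0 of them (background 0.262%), with 2 at an unadjusted p under 0.05. DESeq2 and limma also called 0. The groups did not overlap for any of the 3, as for 94.5% of all listed genes. With the replicate block 1 gene was called (background 22.6%). SLC16A12, a creatine carrier of the monocarboxylate transporter family (chr10:89430299-89556641), was the only member of any table with more than 50 reads in all 4 libraries. It had 51 and 178 reads after transit against 163 and 314 in control. In normalised counts these were 49.8 and 164 after transit and 207 and 270 in control, so both values after transit lay under both control values, and within each replicate number the value after transit was the lower. The difference was -1.15 on the log2 scale (SE 0.79), with an adjusted p of 1, and of 0.0120 with the block. Without constriction library 1 it was -0.53 and without constriction library 2 it was -2.24, and without a control library it was -1.33 or -0.94. SLCO2A1, the prostaglandin carrier (chr3:133928145-134052184), had 0 and 0 reads after transit against 9 and 13 in control, at least 3.96-fold lower (adjusted p = 1). SLC14A2, a urea carrier of the kidney (chr18:45212995-45683686), had 23 and 6 reads after transit against 0 and 1 in control. Both values after transit were above both controls, and the ratio of constriction to control was 26.9 with an exact 95% counting interval of 4.45 to 1097 (adjusted p = 1). Its log2 difference with a pseudocount of 1, 3.39 with all libraries, was 2.19 without constriction library 1, 4.04 without constriction library 2, 3.01 without control library 1 and 1.88 without control library 2.

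**Figure D5:**
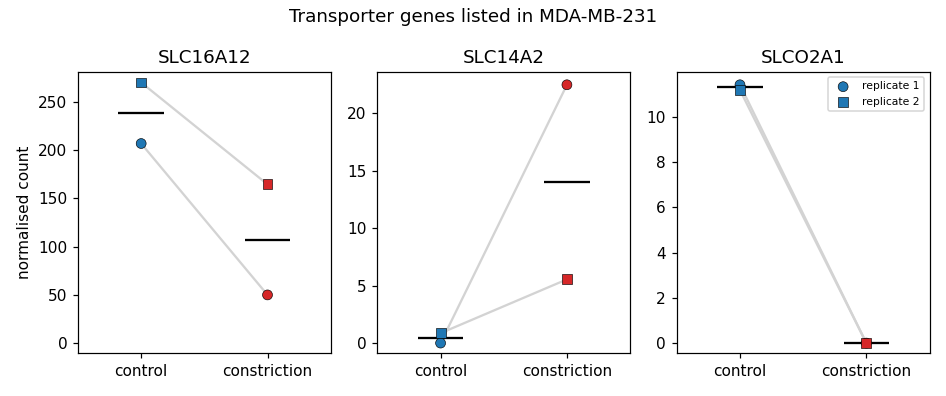
Normalised counts of the 3 transporter genes listed in MDA-MB-231, in control and constriction libraries, each panel with its own axis from 0; circles are replicate 1, squares replicate 2, grey lines join libraries of the same number and bars are group means. SLC16A12 and SLCO2A1 are lower and SLC14A2 is higher after transit in both replicates.

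In LM2 no SLC or ABC coding gene was among the 97 listed genes. None of the 44 genes was listed in a second line, so the lines could not be compared gene by gene, and the tables of the lines were normalised separately. The breast epithelial label could not be checked against markers, because none of 8 epithelial and 6 mesenchymal marker genes was in any table.

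Other membrane transport genes were read from a list chosen by name. In MCF-10A, 4 of 41 P-type ATPases were listed, and all 4 were called lower (background 91.3%) and 2 with the block (background 74.2%). ATP13A4 had 0 and 0 reads after transit against 145 and 41 in control (adjusted p = 0.0141, and 0.774 with the block), and ATP10B, a phospholipid flippase, had 0 and 0 reads against 497 and 28 (adjusted p = 0.0410, and 1 with the block). The 2 listed of 27 V-type ATPase subunits, ATP6V1B1 and ATP6V1G2, also had 0 reads after transit and were called lower, and the block ended the call of ATP6V1B1 (adjusted p = 0.496 with the block). AQP1, the only listed aquaporin of 14, had 0 and 0 reads against 21 and 9 (adjusted p = 0.00472). The xenobiotic receptor NR1I3, known to act on transporter genes of the liver, was the only listed gene of 19 such regulators, with 0 and 0 reads against 40 and 30 (adjusted p = 0.00469). Of 112 annotated SLC and ABC genes of other biotypes, such as pseudogenes and antisense RNAs, 7 were listed in MCF-10A, and all 7 had 0 reads after transit and were called lower. In MDA-MB-231, 2 processed pseudogenes of the SLC25 family were listed and neither was called.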

How the data were processed

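Poly-A RNA of 12 libraries, 2 per condition in each of 3 cell lines, was analysed from the deposited tables. Per the submitters' processing notes, the authors filtered reads with fastp, aligned them to GRCh38 with HISAT2 2.0.5 and obtained the deposited counts per gene with featureCounts 1.5.0-p3. The authors divided the counts by DESeq2 (1.20.0) size factors of each line to make the normalised counts they deposited, a signal with no length correction. FPKM values were computed by the authors with the gene lengths also deposited. The tables also hold the log2 fold changes, p-values and adjusted p-values of the authors' comparison. The fold changes were not used. Those deposited p-values, raw and adjusted, served only to learn that every listed gene had p under 0.05 and that adjustment ran over 19236, 23976 and 30209 genes in MCF-10A, MDA-MB-231 and LM2. The deposited GO enrichment lists were not used.

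Library totals and size factors were recovered from these columns, and gene positions were checked against GENCODE 29. Each line was fitted alone with edgeR 4.0.16 (R 4.3.3), with its quasi-likelihood test (two-sided) on the counts of all rows with the authors' size factors, and p-values were adjusted by Benjamini-Hochberg over those gene numbers, taking unlisted genes at 1. Calls needed an adjusted p under 0.05. The script was tested on simulated counts. A difference on the log2 scale is that of log2(mean normalised count + 1), with its SE from the spread of the libraries. With 2 libraries per group, p-values refer only to the spread between these libraries. The edgeR fit estimates that spread partly from all listed genes together, so a p-value does not measure the spread of its gene alone. Replicate numbers were taken as pairing, because the study's supplement lists transit and control of one experiment together. Deviations of same-numbered libraries correlated at -0.0427 in MCF-10A and 0.0827 in MDA-MB-231 over all rows. Over genes averaging 10 normalised counts or more, they correlated at -0.110 in MCF-10A (1209 genes) and 0.159 in MDA-MB-231 (259 genes). One LM2 transit library is number 2 by its title and 1 by its description, and the title was followed.

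The members, transport classes, gene lists and tests were chosen with earlier results of these data known. Genes were named when they were listed in MDA-MB-231, higher after transit, above 3 reads after transit, among the 10 highest in control, the 2 highest of their class, or the 5 whose controls differed most, and other members are given by counts or as examples chosen after their values were seen.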

Additional observations from a re-analysis of the deposited data

How the results depend on the processing

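Of 40 MCF-10A calls, 24 remained with the replicate block, and the counts were 38 with DESeq2 1.42.0, 31 with TMM factors, 25 with limma 3.58.1 at a pseudocount of 1, 0 with limma at a pseudocount of 10 (29 at an unadjusted p under 0.05), 18 with a filter at a mean normalised count of 10, and 40 when adjusted over the table alone. Leaving out 1 library gave 0 to 3 calls, in fits that assume the lone library to vary like the other group. The filter left 22 lower genes, 20 at 0 reads in both constriction libraries and 22 without overlap. A block with the numbers crossed, added after the data were seen because the deviations correlated at -0.11 over the 1209 genes averaging 10 normalised counts or more, gave 0 calls with edgeR (33 at an unadjusted p under 0.05). In MDA-MB-231, 1 gene was called with the replicate block and 2 when adjusted over the table alone, and the filter left 1 lower gene, 0 at 0 reads after transit and 1 without overlap. The cause of these differences was not tested, except that the filter tests fewer genes and leaving out a library uses fewer samples. For these settings other than the replicate block, no share over all listed genes is given. Those counts are therefore not a result about transporters.

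No named gene changed direction. TMM factors moved the median log2 difference of all listed genes by -0.42 in MCF-10A and by -0.41 in MDA-MB-231, at a pseudocount of 1, but they weakened the bounds of the 23 named MCF-10A genes at 0 reads to 0.663 to 0.743 times their values. These factors were 6.28 and 0.238 for the MCF-10A constriction libraries, whose listed genes are mostly at 0. In FPKM with a pseudocount of 1, the log2 difference was -0.83 for ABCA3, -0.82 for SLC39A1, -0.47 for SLC16A12 and 0.08 for SLC14A2. Besides the SLC16A12 call, the block gained none, and among the transporter genes it ended no call outside the 16 given above. Without control library 1, 7 named genes were left at or under the floor in normalised counts, so none of them has a bound that shows a fall, and without constriction library 1, SLC5A12 was at 0 in every library. A pseudocount of 10 does not apply to bounds. LM2 had no member, so its alternatives gave no value. With 3 reads as the floor, a fall of a gene with few control reads is bounded only weakly.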
